A study of Homo sapiens with 8 samples.

Results

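The ZNF zinc finger genes of chromosome 19 were examined for contacts with YTHDF2, a cytoplasmic reader of the RNA modification N6-methyladenosine (m6A) that brings mRNA decay factors to its targets. Members were the protein-coding genes of this chromosome whose symbol is ZNF followed by digits and at most 1 letter. The rule uses names and positions only. It selected 246 of the 19932 protein-coding genes considered and of the 1446 on chromosome 19. Their spans held 697 distinct YTHDF2 positions on the gene's own strand, out of 37613 in the list and 2235 on chromosome 19.

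The data came from iCLIP2, which crosslinks protein to RNA with ultraviolet light and reads the crosslinked nucleotide from where reverse transcription stops. HEK293T cells, an established human embryonic kidney line, received either 20 µM STM2457 in 0.2% DMSO or 0.2% DMSO alone, each for 12 h and in 4 libraries, with genotype WT in both groups. STM2457 inhibits METTL3, the enzyme that places m6A in mRNA, and the study asked which YTHDF2 binding depends on that mark. The list of sites has 1 score per row and no value per library, so STM2457 and DMSO are not compared here, the spread between replicates and the depth behind a site are unknown, and no test between conditions was possible.

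Most proteins of this family are repressors built from a tandem array of C2H2 zinc fingers. Each finger is a short fold held by a zinc ion and contacts a few bases of DNA, and a conserved linker joins it to the next. Many members also carry a KRAB domain near the N terminus, which recruits TRIM28 (KAP1) and through it the H3K9 methyltransferase SETDB1 and heterochromatin proteins, often at transposable elements. The genes lie in large clusters that grew by tandem duplication. The finger array is usually encoded by the gene's last coding exon, and 1 finger with its linker takes 28 codons, or 84 nt. The sources used here do not say how reads that match several fingers or several ZNF genes were assigned, so positions in close copies are uncertain.

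YTHDF2 sites were present in 127 of the 246 ZNF genes on chromosome 19, or 51.6% (exact binomial 95% interval 45.2 to 58.0, counting error only). Of all protein-coding genes, 39.5% had a site, and of the 263 ZNF genes on other chromosomes, 185 or 70.3% had 1. The other 1200 protein-coding genes of chromosome 19 had a site in 385 cases, or 32.1%. In 87 members there were 3 or more sites (35.4%), against 24.1% of all protein-coding genes, and in 20 members 10 or more (8.13%), against 4.98%. Genes are not replicates, and these shares are descriptions of 1 list. In the shorter part of the list, made of the first 2 of 4 runs of rows per strand, 23.2% of members had a site, against 22.6% of protein-coding genes not named ZNF.

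The members with a site had a median of 5 sites each, with quartiles of 2 and 8, against a median of 6 in ZNF genes elsewhere and 3 in protein-coding genes not named ZNF. A single site was found in 17 members, and 66 members with 5 or more together accounted for 569 of 701 gene-site pairs. The 10 members with the most sites held 152 of them, or 21.7%. The number of sites in a member was nearly unrelated to its genomic length (Spearman rho 0.025 over the 127 members with a site, given as a description). Lengths were similar too, with medians of 23.2 kb over all members and 24.0 kb over protein-coding genes not named ZNF.

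ZNF121, which consists largely of fingers, had the most sites. Its 18 sites lay between positions 9560628 and 9567681 (GRCh38, minus strand), with 4 of them within 534 nt of the gene's 3′ end and 14 more between 5604 and 7352 nt from it. ZNF845 had 17 sites, between 53351247 and 53354472. With sites at most 50 nt apart merged, ZNF845 had 15 and ZNF121 had 11. ZNF180 and ZNF317, both KRAB zinc finger genes, had 16 each, and ZNF146, whose protein is almost only a finger array, had 15, as did ZNF714. ZNF266, ZNF426 and ZNF850 followed with 14 each, and ZNF324, ZNF460 and ZNF507 with 13. ZNF581 and ZNF8 had 12, and ZNF526, ZNF559 and ZNF780A had 11 each. Of the 12 sites of ZNF581, 4 also lay within the span of ZNF580 on the same strand, the only positions that 2 members shared. The 15 sites of ZNF146 lay inside the span of ZNF565, which runs on the opposite strand and had 2 sites of its own.

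By density, short members led. Among members with 5 or more sites, ZNF324 had 1.56 sites per kb of genomic length, ZNF526 had 1.39 and ZNF581 had 1.13. ZNF460 (0.923), ZNF426 (0.908), ZNF865 (0.774), ZNF121 (0.745) and ZNF845 (0.734 per kb) followed. Over the 127 members with a site the median was 0.201 sites per kb, against 0.205 in ZNF genes elsewhere and 0.106 in protein-coding genes not named ZNF. In the other genes of chromosome 19 with a site it was 0.174. Genes not named ZNF were longer where they had a site, with a median of 32.7 kb against 22.1 kb for the members.

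**Figure D1:**
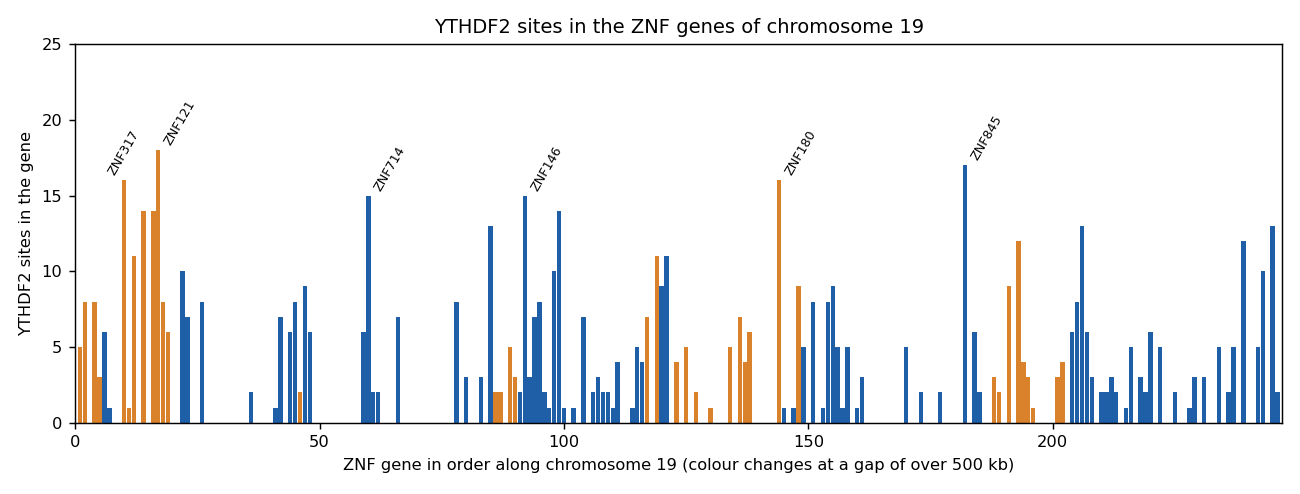
YTHDF2 sites (vertical axis, number of distinct positions) in each of the 246 ZNF genes of chromosome 19, in their order along the chromosome, with the colour changing at each gap of over 500 kb. Genes with 15 to 18 sites stand beside genes with none, and long stretches have no bar.

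Neighbouring members often differed widely. Chains of members at most 500 kb apart formed 20 clusters, of which 8 had 10 or more members and held 222 of the 246. The cluster from ZNF565 to ZNF573 had a site in 21 of 26 genes (80.8%), and the one from ZNF264 to ZNF446 in 27 of 43 (62.8%). The cluster from ZNF414 to ZNF846 had 88 sites in 8 of 13 genes and a median of 12.5 per gene with a site, the highest median among the 8 clusters of 10 or more members. By contrast, the cluster from ZNF101 to ZNF254 had a site in only 10 of 37 genes (27.0%), and 15 of its 61 sites fell in ZNF714 alone. The cluster from ZNF653 to ZNF791 had a site in 8 of 25 (32.0%), that from ZNF575 to ZNF180 in 9 of 23 (39.1%), that from ZNF175 to ZNF331 in 16 of 39 (41.0%) and that from ZNF628 to ZNF835 in 9 of 16 (56.3%).

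The sharpest steps between neighbours were at ZNF845, whose 17 sites lie between ZNF677 and ZNF525 with 0 each. ZNF180 with 16 sites followed ZNF229 with 0 and preceded ZNF296 with 1, and ZNF317 with 16 followed ZNF558 with 0. Expression of these genes in HEK293T cells was not measured in this list, and its part in these differences was not tested.

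Among the 119 of 246 members with no listed site were several with a well-described role. They were ZNF91 and ZNF93, which repress SVA and LINE-1 retrotransposons, the imprinted gene ZNF331, ZNF808, which is needed for pancreas development, ZNF43, and ZNF536, a repressor of neuronal differentiation. ZNF274, which binds the 3′ ends of ZNF genes and recruits SETDB1 there, had 5 sites, all within 1020 nt of its own 3′ end. ZNF224, a repressor first described at the aldolase A gene, also had 5, the KRAB gene ZNF649 had 8, ZNF382 had 2, and ZNF444, a SCAN domain factor, had 1. Of the 5 members with the longest span, ZNF536, ZNF69 and ZNF91 had no site, ZNF254 had 3 and ZNF420 had 7.

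Genes of the repressor machinery that KRAB proteins recruit were listed in 9 of 11 cases, where 39.5% of all protein-coding genes had a site. TASOR of the HUSH complex had 17 sites, the SETDB1 partner ATF7IP had 14 and the ATPase MORC2 had 11. SETDB1 itself had 9, and TRIM28, the direct KRAB partner, had 8. The HP1 genes CBX1, CBX5 and CBX3 had 2, 1 and 1, the remodeller CHD3 had 1, and the HUSH subunits MPHOSPH8 and PPHLN1 had none.

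Sites in these ZNF genes lay close to the 3′ end of the gene and within a short stretch of it. In the 114 members with a site that span 10 kb or more, 485 of 646 sites were within 5 kb of the 3′ end, or 75.1% (exact binomial 95% interval 71.6 to 78.4, counting error only, although sites of a gene are not independent). The same share was 48.2% (45.4 to 51.1) in ZNF genes off chromosome 19 and 47.5% (46.9 to 48.0) in protein-coding genes not named ZNF. The median distance from the 3′ end was 3097 nt in the members, against 5247 and 5603 nt in those groups. The other genes of chromosome 19 were nearer to the members, with 59.1% within 5 kb and a median of 3408 nt. The groups were not matched for gene length. All genes with a site had a median length of 22.1 kb in the members and 24.7 kb in ZNF genes elsewhere. That median was 32.7 kb in genes not named ZNF and 15.7 kb in the other genes of chromosome 19. Within the last 1 kb the members' share was 12.5%, against 8.56% in ZNF genes elsewhere and 13.2% in genes not named ZNF. In the other genes of chromosome 19 it was higher, at 22.1%, and within the last 2 kb it was 37.0%, against 30.3% in the members. In the first 1 kb of the gene the members had 0 of 646 sites. The share was 0.733% in ZNF genes elsewhere, 3.59% in genes not named ZNF and 4.66% in the other genes of chromosome 19. With independent sites, 0 of 646 would allow a share of up to 0.464%. Sites of a gene are not independent, so the real limit is higher, and a difference from ZNF genes elsewhere cannot be read from it.

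**Figure D2:**
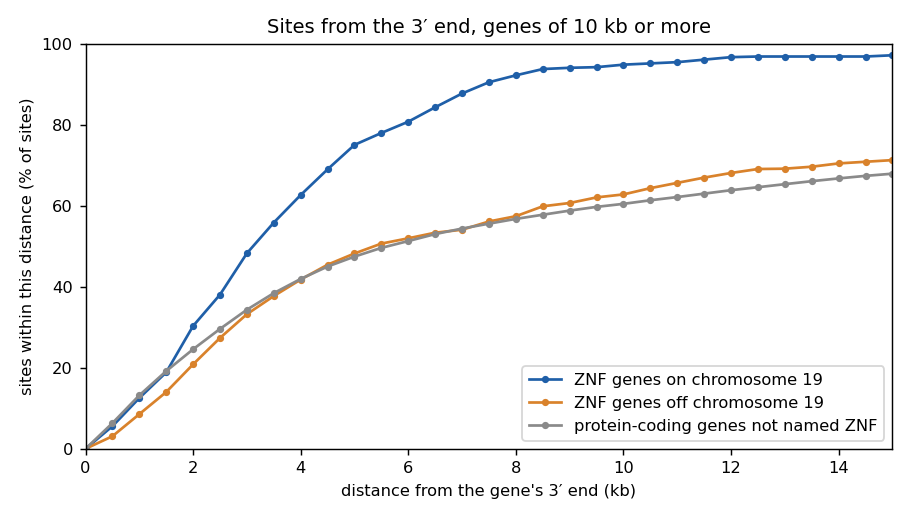
Share of sites (vertical axis, percent, cumulative) within a given distance of the gene's 3′ end (horizontal axis, kb) in genes spanning 10 kb or more. The curve of ZNF genes on chromosome 19 reaches 75.1% at 5 kb, where the curves of ZNF genes elsewhere and of other protein-coding genes are at 48.2% and 47.5%.

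The sites of a member spanned a short stretch. Among the 87 members with 3 or more sites, the outermost lay a median of 1373 nt apart (quartiles 989 and 2100), or 6.80% of the gene's length. In the 141 ZNF genes elsewhere with 3 or more sites the median was 2297 nt or 12.3% of the gene, and in 4579 protein-coding genes not named ZNF it was 4310 nt or 24.6%. All sites lay within less than 2 kb in 62 of 87 members (71.3%), against 41.1% and 38.5%. ZNF180 had its 16 sites within 1517 nt, ZNF8 its 12 within 1110 nt and ZNF274 its 5 within 732 nt. ZNF507 was an exception, with sites from 993 to 34722 nt from its 3′ end. Exon boundaries were not used here, so these stretches are not assigned to coding or untranslated sequence.

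Neighbouring sites of a gene were about as far apart as elsewhere, with a median of 154 nt over 574 intervals in the members, against 155 nt in ZNF genes off chromosome 19 and 151 nt in genes not named ZNF. Intervals of 50 nt or less made up 16.2%, against 20.7% in genes not named ZNF, and those of 10 nt or less numbered 9 (1.57%), against 3.92%. None of the 17 pseudogenes of chromosome 19 named by the same pattern held a listed position on either strand. Whether the list was limited to protein-coding genes is unknown.

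Sites within a member recurred at the length of a finger. Over all pairs of sites of the same member that lay 43 to 1050 nt apart, 239 of 1793 (13.3%) were separated by an exact whole multiple of 84 nt. The 83 other offsets from such a multiple had a median of 17 pairs each, and the distances 1 nt shorter and 1 nt longer had 23 and 18. The 8 most frequent distances between sites of a member were the first 8 multiples of 84. A distance of 84 nt occurred 42 times, 168 nt 31 times, 252 and 336 nt 33 times each, 420 nt 19 times, 504 nt 21 times, 588 nt 17 times and 672 nt 16 times. At each of these multiples, the other distances around it had a median of 1 or 2 pairs. Pairs share sites and genes, so their number is not a number of independent observations. The reads were 77 nt long, shorter than the repeat, and the part that reads matching several fingers may have in this spacing was not tested.

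**Figure D3:**
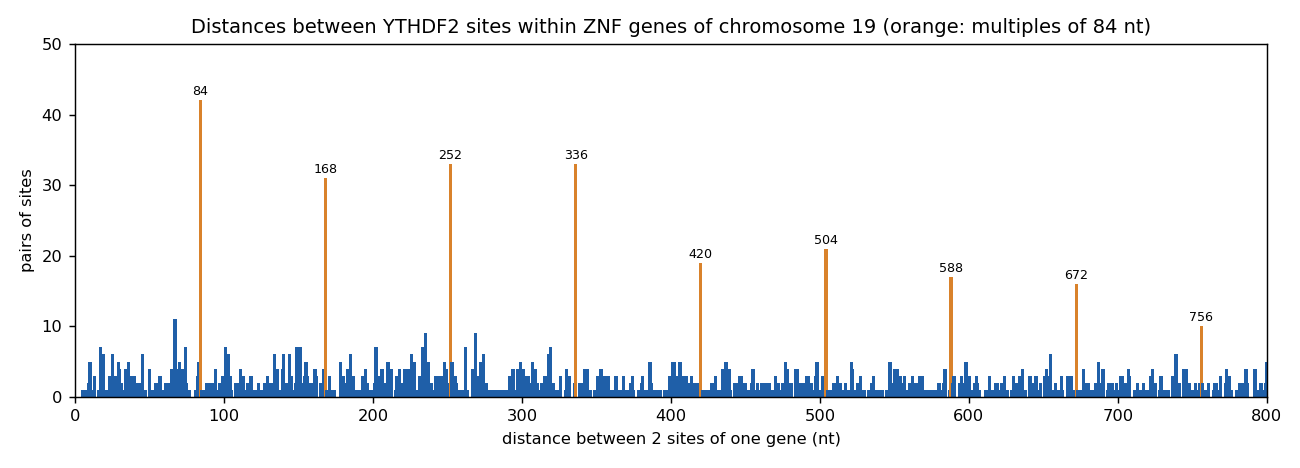
Number of site pairs (vertical axis) at each distance in nt (horizontal axis) between 2 sites of the same ZNF gene on chromosome 19, with whole multiples of 84 nt in orange. The orange bars reach 42 pairs at 84 nt and 33 at 252 and 336 nt, whereas no other distance exceeds 11.

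When period lengths from 60 to 120 nt were compared, 84 nt had the most pairs, at 19.9 per multiple. The next, 112 nt, had 7.11 and shares the distances of 336, 672 and 1008 nt with 84 nt. In protein-coding genes not named ZNF, 837 of 61949 pairs (1.35%) lay at a multiple of 84, and the other offsets had a median of 736 pairs. The other genes of chromosome 19 had 34 of 2391 (1.42%). ZNF genes on other chromosomes had 243 of 3737 (6.50%), with a median of 42 at the other offsets. The spacing was therefore seen in both sets of ZNF genes, and the difference in share between them was not tested.

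A second, weaker recurrence lay 17 nt to either side of the multiples. Offsets of −17 and +17 nt held 58 and 52 pairs in the members, among which 67 nt, with 11 pairs, was the most frequent distance other than a multiple of 84. ZNF genes elsewhere had 75 and 78 pairs at these offsets, against a median of 42, whereas genes not named ZNF had 742 and 677, against 736. Other offsets also exceeded the median of 17 in the members, with 45 pairs at −19 nt, 36 at −34 nt and 35 at +10 nt. Among members with 3 or more sites, these were found in 16, 18 and 18, against 20 each at −29, −27 and +36 nt. The offsets of −17 and +17 nt were found in 27 each. Leaving out multiples of 84, 35.7% of the distances in genes not named ZNF were divisible by 3, the length of a codon. In the members 31.8% were. Because 84 is itself divisible by 3, this left out 13.3% of the members' pairs and 1.35% of those in genes not named ZNF. These shares therefore do not compare all pairs.

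**Figure D4:**
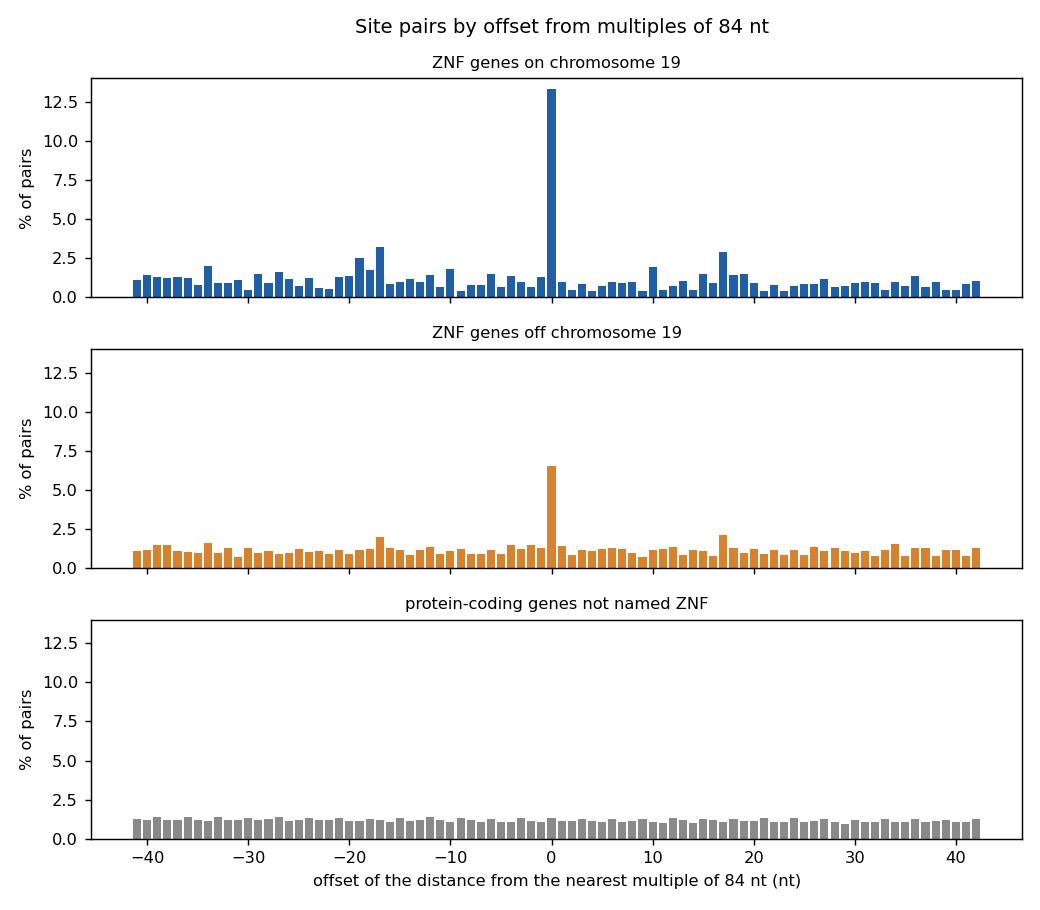
Share of site pairs (vertical axis, percent) by the offset of their distance from the nearest multiple of 84 nt (horizontal axis, nt), for ZNF genes on chromosome 19 (top), ZNF genes elsewhere (middle) and other protein-coding genes (bottom). The bar at 0 is 13.3%, 6.50% and 1.35% from top to bottom, and smaller bars stand at −17 and +17 nt in the upper panels.

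The 84 nt spacing was spread over many members but uneven. Among the 87 members with 3 or more sites, 48 (55.2%) had a pair at a multiple of 84, against 65 of 141 (46.1%) in ZNF genes elsewhere and 623 of 4579 (13.6%) in genes not named ZNF. Any other offset was found in a median of 11 and at most 27 members, a median of 29 ZNF genes elsewhere and a median of 584 genes not named ZNF. ZNF180, ZNF615 and ZNF567 contributed 82 of the 239 pairs, and without them the share was 9.71% (157 of 1617). At least 3 sites with the same remainder after division by 84, called in step here, were found in 24 members. At least 4 were found in 15, and 5 or more in 7. Of the 4579 protein-coding genes not named ZNF that had 3 or more sites, 88 had 3 or more in step and 1 had 5 or more, and of 141 ZNF genes elsewhere 22 and 6. The genes in step described next were chosen after these values were seen.

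ZNF615 had all of its 8 sites in step. On the minus strand, in order of coordinate, they lay at 51993311, 51993563, 51993647, 51993815, 51993983, 51994151, 51994235 and 51994487, so that neighbours were 3, 1, 2, 2, 2, 1 and 3 finger lengths apart over 1176 nt. Their scores ran from 1.10 to 22.3, and none of the 8 was in the shorter part of the list. High and low scores were interspersed along the stretch.

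ZNF180 had 8 of its 16 sites in step, from 44476605 to 44477361 on the minus strand, or 9 finger lengths. Their neighbours were 1, 2, 1, 2, 1, 1 and 1 lengths apart. The 3 most 5′ of these sites had scores of 69.9, 27.1 and 41.1, and the other 5 had 0.467 to 1.74. A further 4 sites of ZNF180, at 44476456, 44476960, 44477044 and 44477128, were each offset by 19 nt toward the 5′ side of that step, and were themselves whole numbers of finger lengths apart.

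ZNF567, on the plus strand, had 7 of 10 sites in step between 36719628 and 36720552, over 11 finger lengths, with scores of up to 45.0. ZNF266, ZNF426, ZNF614 and ZNF627 had 5 in step each. In ZNF614 they were 1, 2, 1 and 1 lengths apart within 420 nt. In ZNF426 the highest-scoring site of the gene, 72.3 at 9529060, was in step with 4 others, and in ZNF266 so was the highest, 70.1 at 9413808. ZNF57 had 4 of its 8 sites in step, each 2 finger lengths from the next in step, over 504 nt. ZNF382 had only 2 sites, exactly 84 nt apart, at 36627098 and 36627182.

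**Figure D5:**
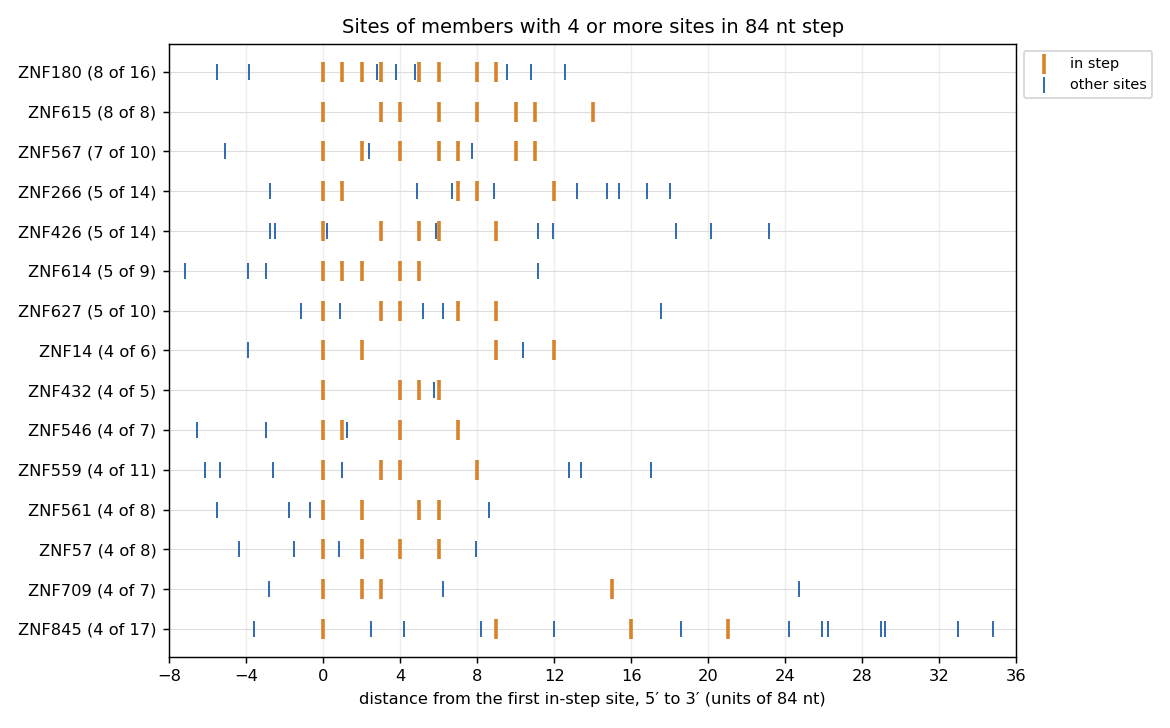
Sites of the 15 members with 4 or more sites in step, placed by their distance from the first in-step site in units of 84 nt, 5′ to 3′ (horizontal axis). Thick orange marks are in step by definition and thin blue marks are the gene's other sites. The numbers in brackets give sites in step of all sites, 8 of 8 in ZNF615.

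Within the 24 members with at least 3 sites in step, 121 sites were out of step. Positions 16 to 18 nt downstream of the step held 21 of them, of which 4 were in ZNF845, and positions 16 to 18 nt upstream 6. The step was set from the same sites. In ZNF649 and ZNF850 sets of sites tied and the smaller remainder was taken, so upstream and downstream are arbitrary there. Sites of a gene are not independent, and whether these sites were evenly placed was not tested. Just outside this window, 7 lay 19 nt upstream and 1 lay 19 nt downstream, so the size of the difference depends on the window. A further 7 lay 10 nt upstream. In ZNF627, for example, 11617418 and 11617502 lay 17 nt downstream of the step and 84 nt from each other. ZNF791 had 2 sites 17 nt downstream, with scores of 51.6 and 20.8, and a site in step with the gene's maximum of 99.9. Of the 78 intervals between consecutive sites in step, 25 were exactly 1 finger length and the others were longer.

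ZNF649 had more than 1 set of sites at this spacing. On the minus strand, 51890919, 51891087 and 51891591 were in step with each other, and 51890869, 51891121 and 51891205 formed another set that was 3 and 1 finger lengths apart. The scores of its 8 sites were low to moderate, from 0.996 to 16.2.

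Not all members with many sites showed this spacing. Among pairs 43 to 1050 nt apart, ZNF317 and ZNF146, with 16 and 15 sites, had none at a multiple of 84 nt, nor had ZNF581, ZNF526 and ZNF507. ZNF121 with 18 sites had 3 such pairs and ZNF714 with 15 had 2.

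Scores in these genes were moderate. The authors' score has no stated scale and is used here only to rank sites within the list. Its median over the members' sites was 6.78 (quartiles 3.04 and 12.9), against 7.56 in ZNF genes elsewhere and 8.78 in protein-coding genes not named ZNF. Of the members' sites, 40.2% were at or above the median of the whole list, 8.67. The highest score was 131 in ZNF146, at 36236057, far under the list's maximum of 708. It was followed by ZNF121 at 127, ZNF559 at 123, ZNF317 at 107, ZNF791 at 99.9, ZNF562 at 93.2, ZNF507 at 83.8 and ZNF561 at 73.2. Of these 8 genes, ZNF317, ZNF559, ZNF121, ZNF561 and ZNF562 belong to the cluster from ZNF414 to ZNF846.

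Scores varied widely within some members. In ZNF146, 5 of 15 sites scored 70.7 or more, at 36235861, 36235905, 36236057, 36236801 and 36238107, and 3 scored under 1, including an outlying one at 36228777, 9991 nt from the 3′ end. In ZNF121 the 4 highest scores, 127, 99.5, 66.0 and 63.7, all fell between 9566620 and 9566994, and the 4 sites near its 3′ end had 14.7 or less. All 13 sites of ZNF324 scored 10.5 or less, although it was the densest member with 5 or more sites.

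Sites in step did not score differently in a uniform direction. Their median score was 7.29 over 102 sites, against 6.74 for the 121 other sites of the same 24 genes, and the in-step median was the higher in 10 and the lower in 13 of 23 genes with both kinds. Fewer members' sites were in the shorter part of the list than elsewhere, 14.5% against 20.7% in ZNF genes off chromosome 19 and 24.1% in genes not named ZNF.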

How the data were processed

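The deposited file is a list of YTHDF2 sites of 1 nt on 43178 rows, with chromosome, position, strand and the authors' score, of unstated scale. Per the submitters' processing notes, which give neither roles nor order, bedtools 2.27.1, UMI-tools 1.0.0, STAR 2.7.3a and FastQC 0.11.8 were used with the build GRCh38.p12. Reads were 77 nt long, per the labels' protocols. Neither the site caller nor the handling of replicates is given there. Nothing in the labels says whether the 4 libraries of a group are separate cultures.

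Rows of the same strand and position counted as 1 site with the higher of their scores, and positions count from 1. Gene spans came from a RefSeq table (GRCh38.p14, which leaves the main chromosomes unchanged), without 105 readthrough genes. Strand came from a RefSeq promoter table for 216 members and from the majority of sites for 8; the other 22 had no site on either strand. In 2640 genes with 5 or more positions, the table's strand matched the majority of sites in 96.9%.

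Members and gene lists were chosen with earlier results of these data known, and the 84 nt comparison was added after seeing the data. Genes to be named were the 15 members with the most sites, the 8 densest among those with 5 or more sites, the 8 with the highest score, the 5 longest, the 5 neighbouring pairs that differ most in sites, members with a known role and the 11 corepressor genes. Ties were broken by symbol. ZNF780A, tied for the last place by sites, ZNF565, ZNF580, the genes in step and those bounding a cluster fall outside this rule. No protein sequence was used, so KRAB and finger counts per member were not computed. No test was made, since the list has no values per library. The counting of pairs and the distances from the 3′ end were checked on made-up sites at known positions. That check was not a test of the 84 nt spacing. Python 3.11.15 with numpy 2.4.6, pandas 2.3.3 and scipy 1.17.1 was used.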

Additional observations from a re-analysis of the deposited data

How the results depend on the processing

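No paired analysis was possible because the list has no column for a single library, and for the same reason no replicate could be left out. The number of members with a site was 57 from the shorter part of the list alone and 87 (counting only members with 3 or more sites) to 125 under the other planned settings, where 127 was reported. The number of sites was 280 with the higher-scoring sites alone and 101 in the shorter part alone, against 697. The share of sites in the last 5 kb was 79.8% in the shorter part alone, against 75.1%, and with windows of 2 and 10 kb it was 30.3% and 94.9%. The share of pairs at a multiple of 84 nt, against 13.3%, was 9.71% without ZNF180, ZNF615 and ZNF567, 16.2% over 6 multiples and 55.2% when each member with 3 or more sites counted once. It was 13.2% to 14.7% under the other settings, which rest on 8 of 55 pairs in the shorter part. All settings for this share were chosen after seeing the data. In the shorter part alone, ZNF genes elsewhere had 3 of 175 pairs at a multiple of 84 nt (1.71%) and genes not named ZNF 1.73%. Median score and median sites per gene stayed within 1.5 times. Of the 15 members with the most sites, all had fewer in the shorter part, 0 to 6. With the higher-scoring sites alone they had 2 to 14, and 12 of the 15 changed by more than 1.5 times. Merging sites at most 50 nt apart changed 1 by that much, ZNF121, from 18 to 11. ZNF146 had 0 when positions inside 2 gene spans were left out.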
